A study of Mus musculus with 24 samples.

Results

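The follistatin, activin and myostatin axis was followed in C2C12 cells, an established mouse myoblast line that can fuse into myotubes. The axis was taken as a list of 10 genes. Follistatin (Fst) and its relatives Fstl3 and Fstl1 are secreted glycoproteins, Mstn, Gdf11, Inhba and Inhbb encode ligands or ligand chains, and Acvr2a, Acvr2b and Acvr1b encode receptors. Of the 10 genes, 9 had a probe set and 17 probe sets named 1 of them alone, among 45137 probe sets in all. Myostatin (Mstn) was named by no probe set in the annotation used and was not analysed here. A probe set was tested where its mean intensity exceeded the 40th percentile of its array design, which kept 13 of the 17, with at least 1 for each of the 9 genes.

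The study measured total RNA on 24 oligonucleotide arrays. There were 4 groups, GM or DM with 25 or 5 mM glucose, each with 3 samples, and every sample was hybridised to an MA and an MB design. GM and DM are the abbreviations in the labels, and in work with this line they usually mean growth medium and low-serum differentiation medium. All groups are the same cell line, the labels name no transgene or other agent, and the glucose exposure, culture times and serum are not stated. The samples are called cultures below, but nothing says that they were grown separately, so p-values measure the spread between these samples, which may be technical. The series was set up to ask whether calorie restriction alters the differentiation of myoblasts, and the labels do not say which glucose level stands for restriction.

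Myostatin, Gdf11 and the activins, which are dimers of the inhibin beta chains, bind type II receptors on the cell surface. These recruit type I receptors, which phosphorylate Smad2 and Smad3. In skeletal muscle this pathway is known for restraining growth and differentiation. Follistatin wraps around the ligands and keeps them from their receptors, and its gain in muscle is known for enlarging muscle mass. Values below are linear intensities scaled by the authors, and intensities of different probe sets are not comparable with each other. Log2 differences were fitted to log2 of the intensity plus 20, which understates the change of dim probe sets, and a gene was called where the Benjamini-Hochberg adjusted p of limma was under 0.05.

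The arrays of a design had a common trimmed mean, 150.05 to 150.07 on MA and 150.02 to 150.03 on MB. The 3' control probe set for 18S RNA split the cultures. On MA it read 23.0 to 48.1 in 4 cultures and 279 to 1267 in the other 8, and the same 4 were low on MB. GM at 5 mM held 2 of these low-18S cultures, each DM group held 1, and GM at 25 mM held none. Among the high-18S cultures alone, GM at 5 mM is therefore represented by replicate 3 only. Medium at 5 mM, glucose in GM and the interaction rest on that culture there. The labels give no reason for the split. Myoblast and myotube markers went with the usual reading of DM as differentiation medium, but they cannot identify the line. Their summed intensity was 2784 to 3323 over the GM cultures and 21137 to 41095 over the DM cultures. Of 9 such markers, 7 were higher in DM at each glucose level and none was called for glucose. The sum of the 9 in DM was 24324 to 41095 at 25 mM and 21137 to 34457 at 5 mM. Within DM the means of Ckm (3657 and 2370), Myh3 (4497 and 3125) and Acta1 (10352 and 8278) were lower at 5 mM than at 25 mM. So were those of Des and Mymk, while those of Myod1, Myf5, Cdh15 and Myog were higher. Summed adipocyte markers were 379 to 503 in GM and 91.2 to 188 in DM, and blood and endothelial markers were 140 to 273 in GM and 79.8 to 127 in DM. Summed osteoblast markers were 82.5 to 297 over all cultures and overlapped between the groups. Of the markers of these other cells, Adipoq, Ptprc and Pecam1 had group means of at most 17.3, near the bottom of the intensity range. Sp7, from the osteoblast list, was not low, with means of 169 and 88.1 in GM and 87.4 and 107 in DM, at 25 and 5 mM. Pparg, from the adipocyte list, had means of 51.4 and 41.6 in GM and at most 15.6 in DM. Other markers on those lists were brighter in GM than in DM: Cebpa had group means of 265 and 294 in GM and at most 56.3 in DM, Cd14 of 132 and 117 in GM and at most 46.6 in DM, and Lpl of 78.8 and 62.2 in GM and at most 39.1 in DM. Cebpa and Cd14 thus make up much of the adipocyte and the blood and endothelial sums. Not every marker was brighter in GM. Ptprc had means of 8.6 and 6.9 in GM and 11.9 and 15.4 in DM, at 25 and 5 mM. At 5 mM, Fabp4, Pecam1, Cdh5 and Hba-a1 were also brighter in DM than in GM. The part of these other markers in the results was not tested.

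Fst and Fstl3 were higher in DM than in GM at each glucose level, and the activin beta chain gene Inhbb was lower. At 25 mM glucose, Fst and Fstl3 were called higher in DM than in GM and Inhba and Inhbb lower, which is 2 of 9 genes in each direction. Over all 12851 genes tested, 12.2% were called higher and 15.9% lower in this comparison. At 5 mM, Fst and Fstl3 were again higher while Fstl1 and Inhbb were lower, against 9.5% of all genes higher and 13.7% lower. The median log2 difference of the 9 genes was 0.08 at 25 mM, beside -0.11 for all genes, and -0.28 at 5 mM, beside -0.03 for all genes. The share of members called was thus not far from the background, and the sizes of the changes carry the account below. Fst entered these counts through its DM readings. Its MA probe set had GM means of 35.8 and 12.1 at 25 and 5 mM, and a mean above 35.5 over all arrays was needed. A probe set this dim in GM could be tested only if brighter in DM, so a lower call was not open to it. The log2 ratio of the 3' to the 5' actin control probe set on MA was 0.34 to 0.55 in GM and 0.12 to 0.18 in DM at 25 mM, without overlap, and -0.05 to 0.38 in GM and 0.10 to 0.37 in DM at 5 mM. Its part in the results was not tested. These are bulk samples, in which fewer cells of a type and less RNA per cell cannot be told apart.

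Within DM, lower glucose went with lower transcripts of follistatin and the 2 relatives of it among the members. Fst, Fstl3 and Fstl1 were called lower at 5 mM than at 25 mM, which is 3 of 9 genes. Of all genes, 0.91% were called lower and 0.436% higher in this comparison. None of the ligand or receptor genes was called for glucose in DM. Nor were the follistatin-like genes Fstl4 (0.71, SE 0.59) and Fstl5 (-0.22, SE 0.58), which are outside the members. In GM no member was called for glucose, against 0.00778% of all genes, although 2 of the 9 had an unadjusted p under 0.05. The median log2 glucose difference of the 9 genes was -0.26 in DM, beside 0.01 for all genes, and -0.07 in GM, beside -0.01. The comparisons of medium and of glucose share cultures, so they are not independent of each other.

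**Figure D1:**
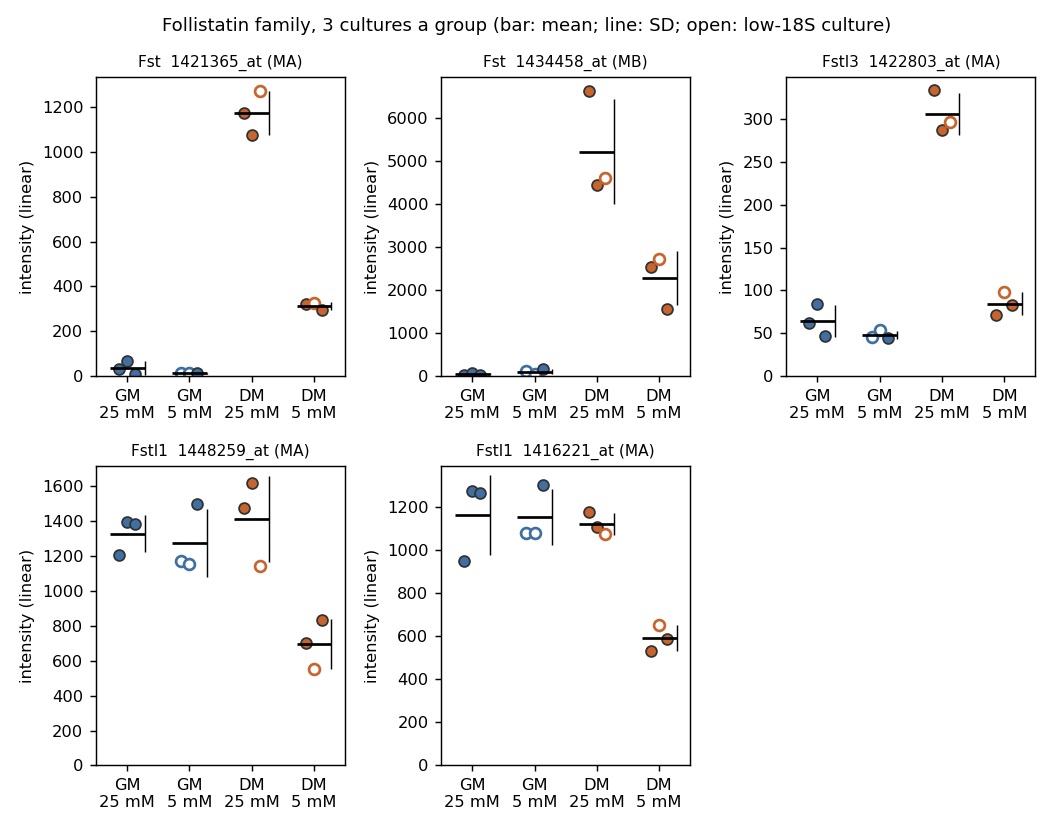
Intensity of the 5 probe sets of Fst, Fstl3 and Fstl1 in every culture, by medium and glucose (linear axes from 0, 1 panel a probe set; horizontal bar: mean of 3 cultures; vertical line: SD; open points: low-18S cultures). Fst and Fstl3 are highest in DM at 25 mM, and Fstl1 is lowest in DM at 5 mM.

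Fst encodes follistatin, which binds activins and myostatin with high affinity. In GM its MA probe set (1421365_at) was dim: the 3 cultures read 31.7, 68.1 and 7.7 at 25 mM and 11.5, 13.0 and 11.8 at 5 mM. In DM it read 1172, 1075 and 1270 at 25 mM and 320, 324 and 294 at 5 mM. Every DM culture lay above every GM culture, and within DM every 25 mM culture lay above every 5 mM culture. The means differed 32.7-fold between media at 25 mM and 25.9-fold at 5 mM, folds whose denominators lie near or under the intensity of 35.5 that a tested MA probe set had to exceed on average. The log2 difference between media was 4.57 (SE 0.29, limma adjusted p = 2.35e-08) at 25 mM and 3.37 (adjusted p = 5.69e-07) at 5 mM. Within DM, 25 mM exceeded 5 mM 3.75-fold, a log2 difference for 5 mM minus 25 mM of -1.84 (SE 0.29, limma adjusted p = 0.00344). That call was lost when a pseudocount of 1 was used (adjusted p = 0.0978).

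A second Fst probe set on the MB design (1434458_at) gave the same order of groups in DM. It read 6613, 4429 and 4593 in DM at 25 mM and 2544, 2717 and 1555 at 5 mM, so these groups did not overlap either. In GM it read 29.4, 66.8 and 28.8 at 25 mM and 113.7, 46.3 and 157.7 at 5 mM. Its log2 difference between media was 6.44 (SE 0.33, limma adjusted p = 1.24e-10) at 25 mM and 4.26 (adjusted p = 4.00e-08) at 5 mM. The glucose difference in DM was -1.21 (SE 0.33) and was not called (limma adjusted p = 0.339), so the glucose call for Fst rests on the MA probe set. In GM the pair of Fst probe sets had opposite signs for glucose, -0.64 on MA and 0.97 on MB, and neither was called. The interaction, which is the glucose difference in DM minus that in GM, was -1.20 (SE 0.41, limma adjusted p = 0.278) on MA and -2.18 (adjusted p = 0.185) on MB. A larger glucose difference in DM than in GM was therefore not called for Fst, with 3 exceptions among the alternatives. The Fst MA value was called with a pseudocount of 64 (adjusted p = 0.0154) and, at -1.60, without replicate 2 of GM at 25 mM (adjusted p = 0.0414), and the MB value without replicate 2 of GM at 5 mM (adjusted p = 0.0261).

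Fstl3 encodes a follistatin-like protein that also binds activins and myostatin. Its probe set (1422803_at) read 62.3, 84.4 and 47.2 in GM at 25 mM, compared with 45.5, 53.8 and 44.9 in GM at 5 mM. In DM it read 334.7, 287.7 and 296.6 at 25 mM but 71.4, 98.8 and 83.3 at 5 mM. The 3 cultures of DM at 25 mM stood far above the other 9, while DM at 5 mM lay just above GM at 5 mM without overlap. The rise with DM was 4.74-fold at 25 mM, a log2 difference of 1.97 (SE 0.18, limma adjusted p = 1.36e-06). At 5 mM it was 1.76-fold, a log2 difference of 0.61 (SE 0.18, adjusted p = 0.0216). The call at 5 mM was lost when any of 4 single cultures was left out. In GM at 5 mM these were replicates 1 (limma adjusted p = 0.0692) and 3 (0.0557). In DM at 5 mM they were replicates 2 (0.0759) and 3 (0.0504). The call was also lost among the high-18S cultures alone, but there GM at 5 mM is only replicate 3, too few to read that loss.

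For Fstl3 the glucose difference in DM was -1.65 (SE 0.18, limma adjusted p = 0.000289), a 3.62-fold lower mean at 5 mM. It kept its call under all 24 alternatives run, with values from -1.86 to -1.32, among them -1.77 within the high-18S cultures. The interaction was -1.36 (SE 0.26, limma adjusted p = 0.0330), which made Fstl3 the 1 member called there, beside 0.467% of all genes. This interaction call was fragile. It was lost in 13 of 23 alternatives, with adjusted p-values from 0.00481 to 0.267, including 9 of the 12 that left out a single culture, all but replicate 2 of GM at 25 mM, replicate 3 of GM at 5 mM and replicate 2 of DM at 5 mM.

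The stretches upstream of Fstl3, which rose in DM, and Fstl1, which did not, are shown because muscle regulatory factors such as MyoD are known to bind E-boxes. They were picked with these calls known, so the pair is no test of E-boxes. E-boxes were searched as CANNTG on both strands of the 250 bases before the RefSeq start, and matches are in capitals. The Fstl3 stretch lies at chr10:79777024-79777273 on the plus strand of GRCm38.p6 and held 3 matches. The Fstl1 stretch lies at chr16:37776805-37777054 on the plus strand and held none.
Fstl3: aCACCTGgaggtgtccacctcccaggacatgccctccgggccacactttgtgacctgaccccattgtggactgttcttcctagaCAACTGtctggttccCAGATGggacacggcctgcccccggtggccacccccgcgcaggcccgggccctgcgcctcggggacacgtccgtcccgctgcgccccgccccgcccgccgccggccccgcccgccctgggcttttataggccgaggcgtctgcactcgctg
Fstl1: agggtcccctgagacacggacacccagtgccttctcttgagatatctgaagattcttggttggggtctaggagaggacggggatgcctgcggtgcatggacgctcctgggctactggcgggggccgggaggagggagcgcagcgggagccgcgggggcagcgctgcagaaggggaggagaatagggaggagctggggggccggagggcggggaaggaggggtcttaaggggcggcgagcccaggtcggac
Fst was not among the promoters searched. Of the 9 members with a RefSeq promoter, 4 held an E-box: Mstn with 4 matches, Fstl3 with 3, and Gdf11 and Acvr1b with 1 each. Gdf11 and Acvr1b were not called between media, and the part of E-boxes in the Fstl3 result was not tested. Of all 32851 mouse promoters of this length, 66.2% held at least 1. The Smad box CAGAC, searched on both strands, also occurred in 4 of the 9 members, with 2 matches each in Fstl3 and Mstn and 1 each in Acvr2a and Acvr2b, beside 42.2% of all promoters. The E-box and the Smad box can overlap. In Fstl3 the E-box CAACTG shares its last G with GTCTG, the Smad box on the other strand. A match is a description of letters only.

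Fstl1 is a more distant relative that shares the follistatin domain and is secreted by muscle cells. Its brighter probe set (1448259_at) read 1205, 1394 and 1386 in GM at 25 mM, 1169, 1156 and 1499 in GM at 5 mM and 1475, 1621 and 1142 in DM at 25 mM. These 3 groups overlapped. In DM at 5 mM it read 703, 551 and 834, below every other culture. The glucose difference in DM was -1.01 (SE 0.17, limma adjusted p = 0.00689), a 2.03-fold lower mean at 5 mM, and the medium difference at 5 mM was -0.86 (adjusted p = 0.00150). At 25 mM the media differed by 0.08 (SE 0.17, adjusted p = 0.762). The glucose call was lost when the fit held only the DM arrays (adjusted p = 0.0561).

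The other Fstl1 probe set (1416221_at) showed the same pattern. It read 531, 651 and 588 in DM at 5 mM against 1177, 1109 and 1076 in DM at 25 mM, and 949 to 1305 in the 6 GM cultures. Its glucose difference in DM was -0.91 (SE 0.14, limma adjusted p = 0.00306) and was called under all 24 alternatives. The interaction for Fstl1 was -0.94 (SE 0.24, limma adjusted p = 0.139) and -0.90 (SE 0.20, adjusted p = 0.0626) for the brighter and the dimmer probe set, and neither was called. With the low and high 18S cultures as a block, the brighter probe set was called at -1.22 (adjusted p = 0.000892). The dimmer probe set was called in 5 of 23 alternatives, among them the 1 without replicate 2 of DM at 5 mM.

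**Figure D2:**
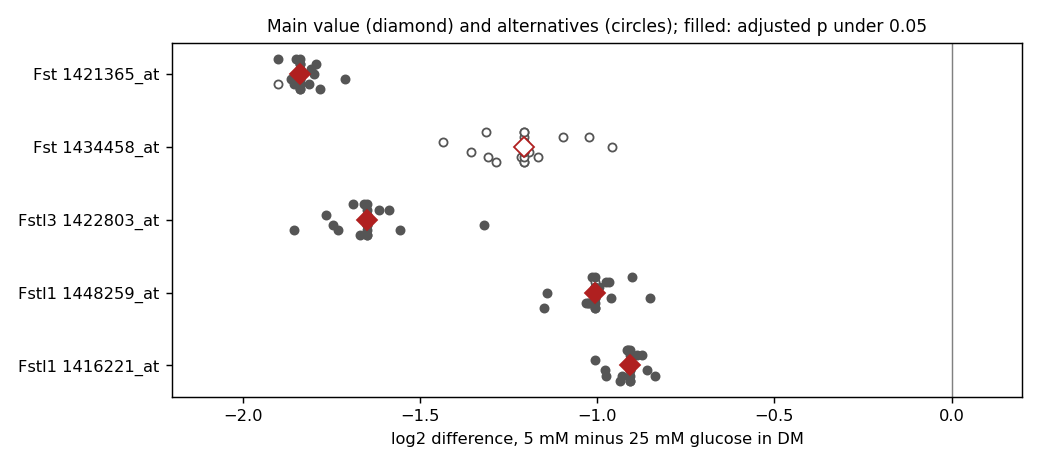
Log2 glucose difference in DM (5 mM minus 25 mM) for the 5 probe sets of Fst, Fstl3 and Fstl1; diamonds give the values as reported and circles the 24 alternatives, filled where the limma adjusted p was under 0.05. All values lie below 0, and the MB probe set of Fst is open throughout.

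Among the ligands, Inhbb had the steadiest change. Inhbb encodes the beta B chain, whose dimer is activin B. Its brighter probe set (1426858_at) read 189.5, 196.0 and 200 in GM at 25 mM, compared with 215.8, 231.3 and 261.9 in GM at 5 mM. In DM it read 75.8, 81.3 and 85.6 at 25 mM and 87.0, 99.4 and 87.5 at 5 mM. All 6 GM cultures lay above all 6 DM cultures. The mean in GM was 2.41-fold that in DM at 25 mM, a log2 difference of -1.09 (SE 0.13, limma adjusted p = 1.97e-05), and 2.59-fold at 5 mM, a log2 difference of -1.20 (SE 0.13, adjusted p = 8.96e-06). In both media the 5 mM cultures lay above those at 25 mM without overlap, by 0.25 in GM (limma adjusted p = 0.496) and 0.14 in DM (adjusted p = 0.842), and neither glucose difference was called. A second, noisier Inhbb probe set (1426859_at) spread from 13.2 to 157.3 over the 12 cultures. Its differences between media were -0.32 (SE 0.45) at 25 mM and -0.24 (SE 0.45) at 5 mM, with no call, so the probe sets differ in whether Inhbb is called.

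Inhba encodes the beta A chain, whose dimer is activin A. Its tested probe set (1422053_at) read 151.7, 200.3 and 159.6 in GM at 25 mM, 53.5, 65.4 and 116.3 in GM at 5 mM, 75.8, 65.3 and 22.4 in DM at 25 mM and 71.8, 8.7 and 56.1 in DM at 5 mM. GM at 25 mM was the high group and overlapped with none of the others. The mean there was 3.13-fold that in DM at 25 mM, a log2 difference of -1.43 (SE 0.40, limma adjusted p = 0.0124). The call was lost without replicate 3 of DM at 25 mM, where the difference was -1.07 (adjusted p = 0.0558).

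The 18S split ran along with Inhba. In each of the 3 groups that held low-18S cultures, those cultures had the lowest Inhba readings, and the part of the split in the Inhba result was not tested beyond the following values. With the split as a block, Inhba was called lower in DM at 25 mM (-1.05, limma adjusted p = 0.000547) and also at 5 mM (-1.08, adjusted p = 0.000511), where the unblocked difference of -0.70 (adjusted p = 0.226) was not called. Among the high-18S cultures the difference was -1.07 (limma adjusted p = 0.00124) at 25 mM. At 5 mM it was -0.71, with only replicate 3 of GM at 5 mM left. The lower reading at 5 mM in GM, a 2.17-fold difference of the means (limma adjusted p = 0.439), was not called although its groups did not overlap, and its log2 difference was -0.24 with the block. A second Inhba probe set on MB (1458291_at) was too dim to be tested and read 15.2 to 124.6.

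Gdf11 encodes the ligand most like myostatin. Its probe set (1427723_at) was just above the filter, at the 46.1 percentile of its design. It read 62.1, 26.5 and 60.5 in GM at 25 mM, 62.2, 49.7 and 58.4 in GM at 5 mM, 23.7, 41.1 and 39.0 in DM at 25 mM and 71.3, 43.6 and 22.9 in DM at 5 mM. The groups overlapped in every comparison. The log2 difference between media was -0.32 (SE 0.29) at 25 mM and -0.28 (SE 0.29) at 5 mM, and no comparison was called.

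**Figure D3:**
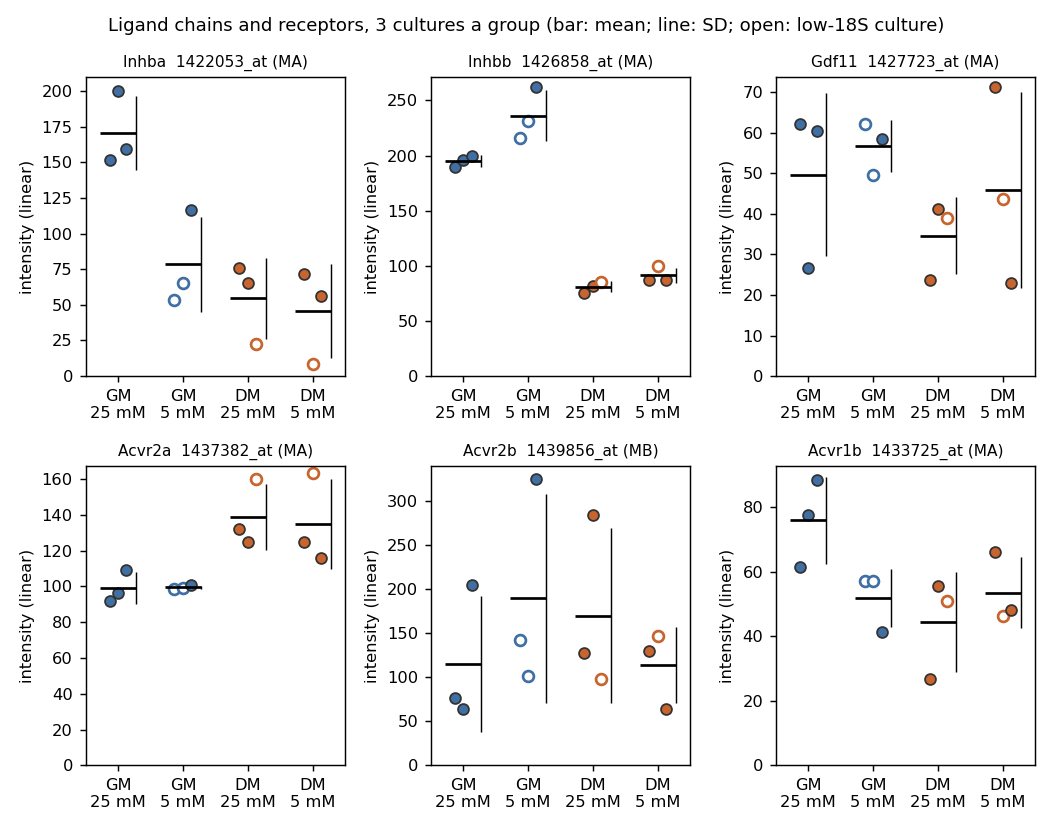
Intensity of the representative probe sets of Inhba, Inhbb, Gdf11, Acvr2a, Acvr2b and Acvr1b in every culture (linear axes from 0, 1 panel a gene; horizontal bar: mean of 3 cultures; vertical line: SD; open points: low-18S cultures). Inhbb separates GM from DM, Inhba is high in GM at 25 mM, and Acvr2a is higher in DM without overlap.

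Acvr2a encodes a type II receptor for activins and myostatin. Its brighter probe set (1437382_at) read 91.8, 96.6 and 109.0 in GM at 25 mM, compared with 98.8, 99.4 and 100.6 in GM at 5 mM. In DM it read 132.1, 124.7 and 160.0 at 25 mM and 125.1, 163.4 and 116.0 at 5 mM, and no DM culture fell into the GM range. The log2 difference was 0.41 (SE 0.16, limma adjusted p = 0.0576) at 25 mM and 0.36 (SE 0.16, adjusted p = 0.111) at 5 mM, and neither passed the threshold. Acvr2a at 25 mM was called without replicate 2 of DM at 5 mM and with quantile normalization or median centring, among 5 of 24 alternatives, and at 5 mM in 3 of 24. The dimmer Acvr2a probe set (1451004_at) read 10.2 to 65.1 over the GM cultures and 66.7 to 88.9 over the DM cultures. It was called higher in DM at 25 mM (0.84, SE 0.30, adjusted p = 0.0434) but not at 5 mM (0.82, SE 0.30, adjusted p = 0.0577), and the call was lost in 13 of 23 alternatives, 8 of which left out a single culture. The glucose differences of both probe sets lay between -0.04 and 0.06.

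Acvr2b encodes the type II receptor through which myostatin is best known to signal. Its tested probe set (1439856_at, MB) scattered widely within groups, at 76.4, 64.6 and 204.6 in GM at 25 mM, 142.3, 102.1 and 325.3 in GM at 5 mM, 128.1, 284.2 and 98.4 in DM at 25 mM and 130.6, 146.6 and 64.5 in DM at 5 mM. All comparisons overlapped and none was called, with log2 differences between media of 0.51 (SE 0.50) at 25 mM and -0.56 (SE 0.50) at 5 mM. Differences of about that size could not be resolved with this spread. The other Acvr2b probe sets (1419140_at and 1440525_at) were under the filter.

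Acvr1b encodes the type I receptor ALK4, which activins and myostatin use. Its tested probe set (1433725_at) read 61.6, 77.8 and 88.6 in GM at 25 mM, 57.3, 57.1 and 41.4 in GM at 5 mM, 26.9, 55.6 and 50.9 in DM at 25 mM and 66.3, 46.5 and 48.1 in DM at 5 mM. GM at 25 mM lay above GM at 5 mM and above DM at 25 mM without overlap. The medium difference at 25 mM was -0.59 (SE 0.23, limma adjusted p = 0.0548) and at 5 mM 0.03 (SE 0.23), and no comparison was called. The Acvr1b difference at 25 mM was called in 6 of 23 alternatives, among them those without replicate 1 of GM or replicate 2 of DM at 25 mM. A second Acvr1b probe set (1422098_at) was left out by the filter, at the 38.8 percentile.

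**Figure D4:**
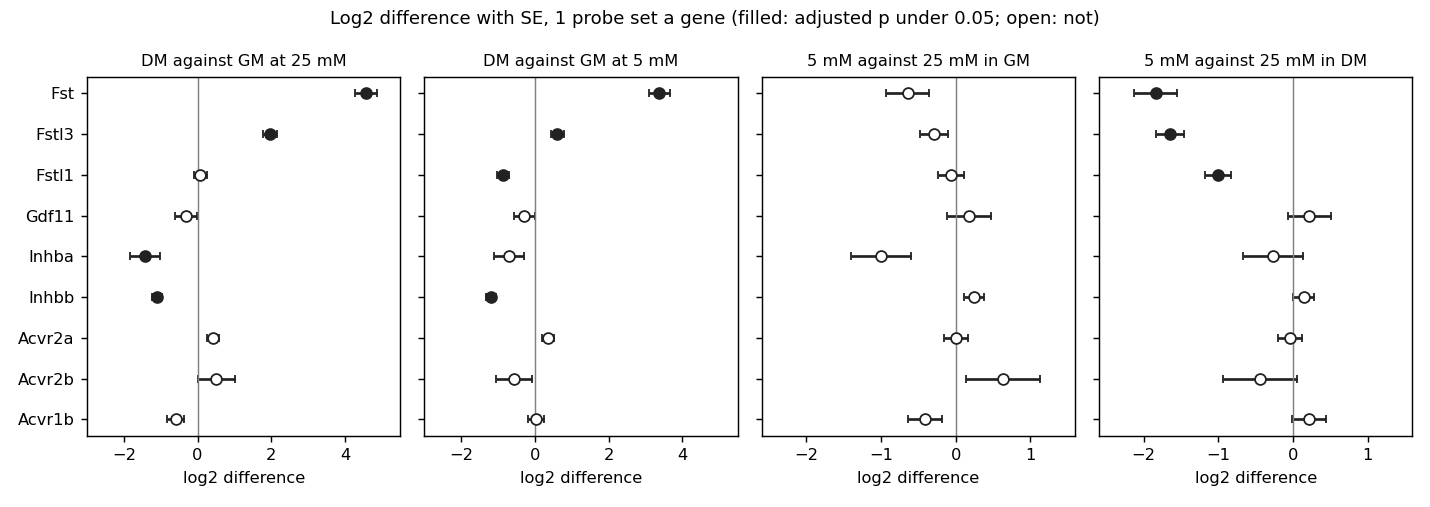
Log2 difference with SE for the representative probe set of each of the 9 genes in 4 comparisons (horizontal axes: log2 of intensity plus 20; filled: limma adjusted p under 0.05). Fst and Fstl3 lie to the right for medium, Inhba and Inhbb to the left, and in DM the glucose calls are Fst, Fstl3 and Fstl1.

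Genes with the profile nearest to each called member were named by the root mean square difference between centred log2 values over the 12 MA arrays, among 8116 genes. These are descriptions of likeness in the same libraries. Nearest to Fst, whose own SD was 2.13, were Smpx at 0.48, Csrp3 at 0.48 and Pgam2 at 0.49, which encode a small striated muscle protein, a muscle LIM protein and the muscle phosphoglycerate mutase. In DM at 25 and 5 mM, Smpx had means of 683 and 229, Csrp3 of 714 and 292, and Pgam2 of 553 and 180. Choice by likeness favours such a shared difference. Nearest to Fstl3, with an SD of 0.89, were Ndrg4 at 0.31, the ubiquitin ligase gene Fbxw7 at 0.33 and Nrap, a sarcomere assembly gene, at 0.36. For Fstl1, with an SD of 0.45, they were Aldh18a1 at 0.21, Nt5dc2 at 0.23 and the matrix gene tenascin C (Tnc) at 0.23. For Inhbb, with an SD of 0.59, they were Prdx4 at 0.10, Psme1 at 0.11 and Npc2 at 0.12, and for Inhba, with an SD of 0.81, Plcb3 at 0.22, Clip4 at 0.27 and Ifnz at 0.31.

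A list of 69 further genes of activin and TGF-beta signalling was set beside the members, of which 49 were tested. In DM against GM, 11 were called higher and 7 lower at 25 mM, and 7 higher and 13 lower at 5 mM. Of all genes, 12.2% were higher and 15.9% lower at 25 mM, and 9.5% higher and 13.7% lower at 5 mM. The list's median log2 difference was -0.12 at 25 mM, beside -0.11 for all genes, and -0.18 at 5 mM, beside -0.03. For glucose none was called in GM. In DM none was called higher and 4 lower, beside 0.436% and 0.91% of all genes, and the list's median was -0.20, beside 0.01 for all genes. The counts of the shorter lists below are small, and each is read against these shares.

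Of 5 tested ligand genes outside the members, Tgfb2 and Tgfb3 rose in DM at each glucose level and Tgfb1 fell. At 25 mM the call for Tgfb2 was lost without replicate 3 of DM at 25 mM (adjusted p = 0.0589) and among the high-18S cultures (adjusted p = 0.0728), and that for Tgfb1 without replicate 1 of DM at 25 mM (adjusted p = 0.0594). Tgfb3 went from 416 ± 86.6 (SD, n = 3) in GM to 1158 ± 231 (SD, n = 3) in DM at 25 mM, a log2 difference of 1.43 (SE 0.18, limma adjusted p = 2.70e-05). Of 12 tested genes for extracellular binding and proprotein cleavage, none was called higher. Of these, 3 were lower in DM at 25 mM and 4 at 5 mM, beside 15.9% and 13.7% of all genes, and the list is too short to read a direction from these counts. They included Bmp1, whose protease family frees latent myostatin. Bmp1 was at -1.03 (SE 0.18, limma adjusted p = 0.000407) at 25 mM and -0.97 (adjusted p = 0.000752) at 5 mM. The Bmp1 call at 5 mM was lost only among the high-18S cultures, where replicate 3 alone stands for GM at 5 mM. Also called lower was the latent TGF-beta binding protein gene Ltbp2, at -1.91 (SE 0.15, limma adjusted p = 1.79e-07) at 25 mM. Its relative Ltbp1 was called at -0.76 (limma adjusted p = 0.0378) at 25 mM and -1.33 (adjusted p = 0.00159) at 5 mM. Ltbp4 was called only at 5 mM (-0.45, adjusted p = 0.0208). The call for Ltbp1 at 25 mM was lost in 7 of 24 alternatives and that for Ltbp4 in 6 of 24. Of 6 tested receptor genes outside the members, 1 was called higher at each glucose level, Tgfbr1 at 25 mM and Tgfbr3 at 5 mM. Both calls were lost under some settings that left out a single culture.

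Of 19 tested Smads and partners, 5 were higher and 2 lower in DM at 25 mM, and 3 higher and 7 lower at 5 mM, against the all-gene shares of 12.2% and 15.9%, and of 9.5% and 13.7%. Pmepa1, a feedback inhibitor of Smad signalling, was 540 ± 26.8 in GM and 1317 ± 320 in DM at 25 mM (SD, n = 3), a log2 difference of 1.23 (SE 0.21, limma adjusted p = 0.000444). Skil, which encodes the Smad corepressor SnoN, was called at 25 mM (1.20, SE 0.21, adjusted p = 0.000518) and was 0.10 (adjusted p = 0.792) at 5 mM, a contrast whose interaction was not called (-1.10, adjusted p = 0.161). Nedd4l was called lower at 5 mM (-1.09, SE 0.21, limma adjusted p = 0.00108), a call kept under all 24 alternatives. Among the others called lower at 5 mM were Smad7 (-1.41, adjusted p = 0.00669), Ski (-0.77, adjusted p = 0.00409) and Smad6 (-0.62, adjusted p = 0.0201). The 2 called lower at 25 mM were Ski (-0.54, adjusted p = 0.0276) and Smad6 (-0.53, adjusted p = 0.0386). The calls of Smad7, Ski and Smad6 were not followed through the alternatives.

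Of 8 tested genes listed as direct Smad2 and Smad3 targets, 3 were called higher and 2 lower in DM than in GM at 25 mM. Smad binding was not measured, so counts on this list do not measure Smad activity. At 5 mM it was 1 higher and 2 lower. The all-gene shares were 12.2% and 15.9% at 25 mM and 9.5% and 13.7% at 5 mM. Tagln was called higher in DM at both, by 1.94 (SE 0.20, limma adjusted p = 2.90e-06) and 1.09 (adjusted p = 0.000665), under all 24 alternatives. Its glucose difference in DM was not called (-0.67, adjusted p = 0.139). For glucose in DM, 3 of the 8 were lower at 5 mM than at 25 mM, beside 0.91% of all genes. Ccn2, a matricellular protein gene, was 141 ± 27.1 at 25 mM and 35.2 ± 12.7 at 5 mM (SD, n = 3), a log2 difference of -1.56 (SE 0.21, limma adjusted p = 0.000973) that kept its call under all 23 alternatives run. Its interaction was -1.83 (SE 0.29, limma adjusted p = 0.0119). That call was lost only among the high-18S cultures, where replicate 3 alone stands for GM at 5 mM. Collagen gene Col1a1 was called at -0.87 (SE 0.19, adjusted p = 0.0330) in DM, a call lost in 13 of 24 alternatives, including the removal of any 1 of the 6 DM cultures or of replicate 1 or 2 of GM at 5 mM. In GM the Col1a1 mean was higher at 5 mM, 80.3 ± 2.81 against 31.3 ± 10.5 at 25 mM (SD, n = 3), a log2 difference of 0.99 (SE 0.19) that was not called (limma adjusted p = 0.269). Its interaction, to which both media contribute, was -1.86 (SE 0.27, limma adjusted p = 0.00772). The Col1a1 interaction call was also lost only among the high-18S cultures, with replicate 3 alone for GM at 5 mM. Ltbp2, which is on this list too, was called at -0.76 (SE 0.15, adjusted p = 0.0139), lost without replicate 2 of DM at 25 mM or replicate 1 of DM at 5 mM, among the high-18S cultures, or in a fit on the DM arrays alone. The corepressor gene Tgif1, from the list of Smads and partners, was also called, at -0.72 (SE 0.14, adjusted p = 0.0154), lost without replicate 1 of DM at 25 mM or replicate 1 or 3 of DM at 5 mM, or among the high-18S cultures.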

How the data were processed

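The authors deposited linear intensities, 1 value a probe set, already scaled to a common trimmed mean. How they made them is not given in the sources used here. The 12 arrays of each design were fitted in R 4.3.3 with limma 3.58.1 (statmod 1.5.0) on log2 of the intensity plus 20: 4 group means, eBayes with a trend, 8 residual degrees of freedom and 5 two-sided contrasts, with Benjamini-Hochberg adjustment within a design and calls at an adjusted p under 0.05. The 64 control probe sets of each design were left out, and probe sets above the 40th percentile of mean intensity were tested (35.5 on MA, 63.7 on MB), 27081 in all. The brightest tested probe set naming a gene alone stood for it, MA before MB. Probe sets took their genes from the platform annotation. The text names every member, the 3 nearest genes to each called MA member, and up to 4 called genes a pathway list by smallest p, not all with values. Smad6, Smad7 and Ski were named besides, to show calls in the lower direction, and Fstl4 and Fstl5 as further follistatin-like genes. Members, lists and alternatives were chosen with earlier results of these data known. The fit was tested on simulated data. Promoter sequences are RefSeq's, on GRCm38.p6. The number of arrays limits the precision.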

Additional observations from a re-analysis of the deposited data

Results flagged for a closer look

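The glucose difference of Fstl3 in DM was larger than that in GM by a test of the difference itself. The interaction was -1.36 (SE 0.26, limma adjusted p = 0.0330), from glucose differences of -1.65 in DM and -0.29 in GM, and it was lost in 13 of 23 alternatives.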

How the results depend on the processing

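For the representative probe sets, 12 values were called, and 286 alternatives were run on them: 265 kept the call, 21 lost it and none reversed it, and 7 of the 12 lost no call. Among 48 uncalled member values (all tested probe sets), 10 were called under some alternative. The number of members called for the interaction was 0 with a pseudocount of 1, with no filter and with the replicate block. It was 2 with a pseudocount of 64, with array weights and with the 18S split as a block. It ranged from 0 to 2 when single cultures were left out. For glucose in GM it was 1 (Inhba) with array weights. Correlations of deviations between samples with the same replicate number ran from -0.46 to 0.52. They cannot decide whether the numbers pair the samples, since they also went with the 18S split. Replicate 2 of GM and of DM at 5 mM, both low-18S, gave 0.52. Replicate 2 of DM at 5 and at 25 mM, of which only the former was low-18S, gave -0.46. With the replicate block 4, 4, 0, 3 and 0 members were called in the 5 contrasts, and the Fstl3 interaction had an adjusted p of 0.0660. Over all probe sets, calls moved by more than 1.5 times in the following settings. For GM glucose they went from 1 to 860 with array weights. For DM glucose they went from 234 to 613 with the 18S block and 112 with only the arrays compared. Interaction calls went from 77 to 331 with array weights and 130 with the 18S block. They fell to 42 without the eBayes trend and 31 with the replicate block. High-18S counts for contrasts that use GM at 5 mM are left out, since only its replicate 3 remains there. Leaving out single cultures gave 129 to 247 calls for DM glucose (lowest without replicate 1 of DM at 25 mM), 28 to 103 for the interaction (lowest without replicate 1 of GM at 5 mM) and 0 to 5 for GM glucose. The interaction could not be fitted on only the arrays compared. Of 30 called values of the pathway genes chosen by smallest p, 13 lost a call under some alternative and none reversed. With 3 cultures a group, changes in probe sets as scattered as those of Gdf11 and Acvr2b are not resolved, and dim probe sets such as Fst in GM have uncertain folds.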
